A study of Mus musculus with 6 samples.

Results

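Annexins are cytosolic proteins that attach to membranes when calcium rises, by a conserved core that bridges calcium ions to acidic phospholipids such as phosphatidylserine. Their N-terminal tails differ and bind other proteins, several of them small calcium sensors of the S100 family. In lymphocytes and other cells, annexins are known for vesicle traffic, sealing of torn membranes and, for annexin A1, dampening of inflammation. The annexin genes described here are Anxa1, Anxa2, Anxa3, Anxa4, Anxa5, Anxa6, Anxa7 and Anxa11. They were chosen by gene name, with earlier results of these data known. All 8 were found among the 24333 genes measured in every library. The values come from RNA sequencing of natural killer (NK) cells sorted from spleens of female C57BL/6 mice. The sort selected NK1.1+ NKp46+ cells and removed CD3+ cells and cells that bind a CD1d tetramer. One group of mice had received an IL-15 cytokine complex (IL-15C, 3 libraries) and the other an IL-2 cytokine complex (IL-2C, 3 libraries). The labels name no genotype or allele other than the strain, and no age, dose, time point, carrier protein or pooling of animals. Untreated cells were not analysed here, and all differences below set 1 treatment against the other. Whether each library stands for a separate mouse is not in the labels, and the spread behind the p-values may therefore be technical. In such bulk samples, fewer cells with a transcript and less transcript per cell cannot be told apart.

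The comparison asks which annexin genes NK cells express after each treatment and whether their levels differ. NK cells of both groups held large amounts of Anxa2 and Anxa6 transcripts, and Anxa3 was nearly absent. Anxa5, whose product binds exposed phosphatidylserine and is widely used as a probe for dying cells, rose in IL-15C. Anxa5 averaged 16.3 FPKM ± 0.457 (SD, n = 3) after IL-2C and 21.3 ± 1.39 (SD, n = 3) after IL-15C, 1.30-fold more. FPKM is the number of fragments per kilobase of transcript, scaled to the depth of the library, so it can be compared between genes. None of the other annexin genes passed the test, with ratios of mean levels, IL-15C to IL-2C, of 0.985 to 1.09 among the tested ones. Anxa3 had 1 to 5 fragments per library.

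Of the 8 genes, 7 had a mean of at least 1 FPKM over the 6 libraries and were tested with limma on log2(FPKM + 1), with Benjamini-Hochberg adjustment over 9831 genes. At a threshold of 0.05 on the adjusted p, 1 of these 7 was higher in IL-15C, 0 were lower and 6 did not pass. Over all 9831 genes, 1.72% were called higher and 4.72% lower, 6.44% together. At an unadjusted p under 0.05 the counts of annexin genes were also 1 and 0, where 6.48% of all tested genes were higher and 20.4% lower. The median log2 change of the 7 genes, IL-15C minus IL-2C, was 0.09, and that of all tested genes was -0.04. A change above 0 was seen for 6 of the 7 genes and for 35.3% of all tested genes. After scaling every library to a common median these shares were 7 of 7 and 50.2%, since Anxa1 changed sign. After rescaling to one common sum (TPM) they were 6 of 7 and 40.2%, and after quantile normalization 6 of 7 and 47.5%. The annexins were not tested as a set. They were chosen with earlier results of these data known, so these shares are a description only. Anxa5 was the called gene under each of those scalings.

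Of the 8 annexin genes, 6 had an entry in the RefSeq promoter table (GRCm38.p6), with 8 start sites among them. The windows of Anxa5, the gene that rose, and of Anxa2, the most abundant one, are printed to show how differently the starts of these genes are built. Each runs 5′ to 3′ on the gene's strand over the 250 bases before the start site. Capitals mark matches to a GC box (GGGCGG), an AP-1 site (TGANTCA) or a TATA box (TATAAA), searched on both strands.
Anxa5, chr3:36475888-36476137, minus strand: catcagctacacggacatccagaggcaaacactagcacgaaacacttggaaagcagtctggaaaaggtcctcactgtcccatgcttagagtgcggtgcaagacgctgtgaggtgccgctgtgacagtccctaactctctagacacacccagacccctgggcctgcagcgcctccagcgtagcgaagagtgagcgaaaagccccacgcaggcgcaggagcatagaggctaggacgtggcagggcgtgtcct
Anxa2, chr9:69453433-69453682, plus strand: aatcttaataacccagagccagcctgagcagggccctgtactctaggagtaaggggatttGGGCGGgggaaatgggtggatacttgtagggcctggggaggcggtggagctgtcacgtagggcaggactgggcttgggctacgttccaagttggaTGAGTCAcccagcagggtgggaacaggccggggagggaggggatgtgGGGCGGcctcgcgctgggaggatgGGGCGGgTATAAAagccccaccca
The Anxa5 window held 13 CpG dinucleotides and none of these motifs. The Anxa2 window held 9 CpG dinucleotides, with GC boxes beginning 190, 48 and 24 bases before the start, an AP-1 match at 95 and a TATA box at 17. The median over all 32851 promoter windows was 6 CpG dinucleotides. A GC box was found in 32.7% of those windows, an AP-1 match in 6.75% and a TATA box in 12.4%. Of the 8 annexin windows, 4 held a GC box, from 3 genes. The Anxa4 windows, like that of Anxa5, held none of these motifs. The GAS motif bound by STAT factors (TTCNNNGAA), which act downstream of both cytokines, was found in 7.02% of all windows and in none of the 8 annexin windows. A match is a description of the letters only, and its absence from 250 bases says nothing about binding of a factor.

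Anxa5 lies on chromosome 3 at 36448924 to 36475887 of mm10, on the minus strand. Its level was 22.9, 20.8 and 20.2 FPKM in IL-15C replicates 1, 2 and 3 and 16.8, 15.9 and 16.2 FPKM in IL-2C replicates 1, 2 and 3. Every IL-15C library lay above every IL-2C library, a separation seen in this direction for 8.15% of all tested genes and, among the 7 tested annexin genes, for Anxa5 alone. The log2 change was 0.36 ± 0.05 (SE), with a 95% interval of 0.24 to 0.48 and a limma adjusted p of 0.0112. An exact permutation test over the 6 libraries gave a two-sided p of 0.1, and 3 against 3 cannot give less. The width of the deposited intervals corresponds to 1595, 1561 and 1528 fragments after IL-15C and to 1151, 1306 and 1348 after IL-2C. Counting error at that depth is 5.01% to 5.89% at 2 SD, smaller than the difference between the groups. The call ended without IL-2C replicate 1 (adjusted p = 0.0518), without IL-2C replicate 2 (0.0631) and with no filter on low genes (0.118), while the change stayed between 0.30 and 0.41 under all 16 alternatives.

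**Figure D1:**
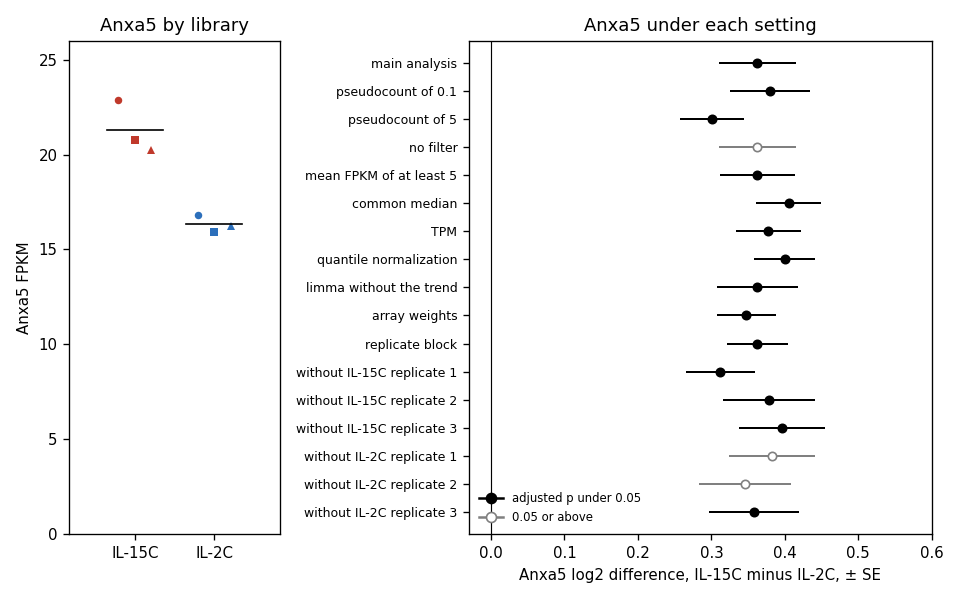
Left, Anxa5 level (FPKM) in each library, with a line at the group mean, and marker shapes for replicates 1 (circle), 2 (square) and 3 (triangle). Right, its log2 change (IL-15C minus IL-2C) ± SE under the main analysis and 16 alternatives, filled where the limma adjusted p was under 0.05; every value lies between 0.30 and 0.41, and 3 alternatives are open symbols.

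As a share of the summed level of the 8 annexin genes, Anxa5 made up 2.49%, 2.43% and 2.36% after IL-15C and 1.95%, 2.00% and 2.01% after IL-2C. This share is the same under any scaling by 1 factor per library, which quantile normalization is not, and the groups did not overlap. There were 19.1, 19.3 and 19.9 Anxa2 transcripts per Anxa5 transcript, by FPKM, after IL-15C, and 23.9, 23.1 and 23.3 after IL-2C. The summed level itself was 918, 855 and 859 FPKM in IL-15C and 863, 795 and 805 FPKM in IL-2C, so the groups overlapped. IL-15C replicate 1 had the highest sum.

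The order of the 8 genes by level was the same in all 6 libraries: Anxa2, Anxa6, Anxa1, Anxa11, Anxa7, Anxa5, Anxa4, Anxa3. The ranges of neighbours in this order over the 6 libraries did not overlap, the closest being Anxa7 with a lowest value of 23.8 FPKM and Anxa5 with a highest value of 22.9 FPKM. Anxa2 alone made up 46.4% to 47.6% of the summed annexin level, Anxa6 30.6% to 31.6% and Anxa1 8.28% to 10.4%.

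**Figure D2:**
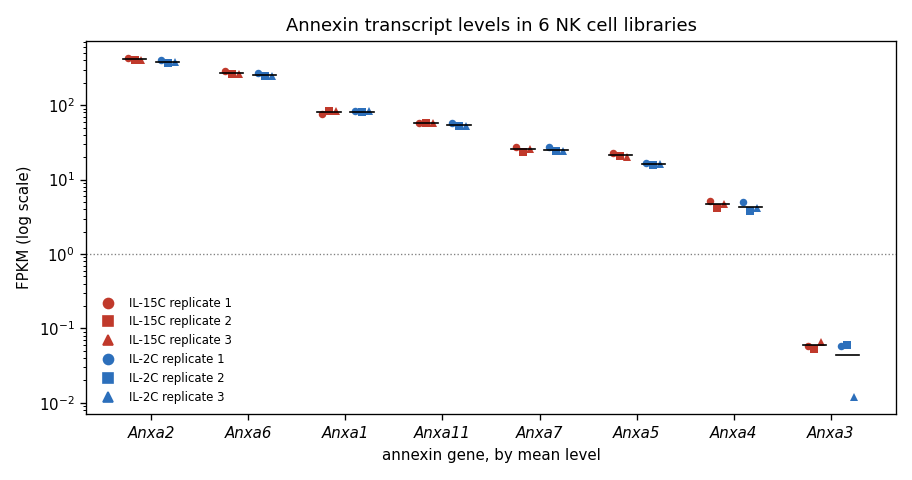
FPKM (log axis) of the 8 annexin genes in each library, ordered by mean level, with a line at each group mean; the dotted line is the 1 FPKM limit for testing. Values run from 437 FPKM for Anxa2 to 0.0119 FPKM for Anxa3, and the groups are separated for Anxa5 only.

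Anxa2 encodes annexin A2, which joins with S100A10 into a complex that links membranes to actin and takes part in exocytosis. The gene lies on chromosome 9 at 69453683 to 69491785, on the plus strand. Its level was 437, 401 and 402 FPKM in IL-15C and 401, 369 and 378 FPKM in IL-2C. The lowest IL-15C library and the highest IL-2C library were practically level, at 401.2 and 401.5 FPKM, so the groups overlapped narrowly. Anxa2 had a log2 change of 0.11 ± 0.06 (SE), with a 95% interval of -0.02 to 0.24 and a limma adjusted p of 0.254. Of all tested genes, 98.7% had a lower mean level than Anxa2.

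Anxa6 encodes annexin A6, a double-length annexin of the plasma membrane and endosomes. It lies on chromosome 11 at 54978962 to 55033471, on the minus strand. Its level was 290, 263 and 267 FPKM in IL-15C and 272, 250 and 247 FPKM in IL-2C. The groups overlapped, with IL-2C replicate 1 above IL-15C replicates 2 and 3. Anxa6 had a log2 change of 0.09 ± 0.06 (SE; 95% interval -0.04 to 0.23, limma adjusted p = 0.335). Its deposited intervals were as wide as 3795 to 3988 fragments would give, against 24750 to 28390 for Anxa2.

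Anxa1 encodes annexin A1, or lipocortin 1, a glucocorticoid-induced protein that acts outside the cell through formyl peptide receptors. It lies on chromosome 19 at 20373434 to 20390671, on the minus strand. Its level was 76.0, 83.5 and 82.9 FPKM in IL-15C and 82.5, 80.1 and 83.4 FPKM in IL-2C. The IL-2C range lay within the IL-15C range, and the lowest library was IL-15C replicate 1. For Anxa1 the log2 change was -0.02 ± 0.05 (SE), with a 95% interval of -0.13 to 0.09 (limma adjusted p = 0.800), and it was 0.02 after scaling to a common median.

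Anxa11 encodes annexin A11, whose long tail takes part in RNA granule transport and cell division. It lies on chromosome 14 at 25842155 to 25886804, on the plus strand. Its level was 58.5, 58.0 and 56.9 FPKM in IL-15C and 57.7, 52.7 and 52.0 FPKM in IL-2C. IL-2C replicate 1 fell within the IL-15C range and the other IL-2C libraries lay below it. For Anxa11 the log2 change was 0.09 ± 0.05 (SE; 95% interval -0.01 to 0.20, limma adjusted p = 0.239). An antisense gene, Anxa11os, overlaps Anxa11 in the GENCODE annotation. Since no source used here states that strand was counted, its reads cannot be told apart from those of Anxa11. The same limit holds for Anxa2 and Anxa4, which Gm16144 and Gm44036 overlap on the other strand. It also holds for Anxa3, which Gm42603 overlaps on the same strand.

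Anxa7 encodes annexin A7, or synexin, first described for the fusion of secretory granules. It lies on chromosome 14 at 20455261 to 20480133, on the minus strand. Its level was 27.5, 23.8 and 25.5 FPKM in IL-15C and 27.2, 24.5 and 24.3 FPKM in IL-2C. The IL-2C range lay within the IL-15C range, and replicate 1 was the highest library of each group. The log2 change was 0.02 ± 0.06 (SE), with a 95% interval of -0.13 to 0.16 and a limma adjusted p of 0.899; it was above 0 under each of the 3 other scalings and -0.04 without IL-15C replicate 1.

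Anxa4 encodes annexin A4, a membrane-binding annexin studied mainly in epithelia. It lies on chromosome 6 at 86736840 to 86793584, on the minus strand. Its level was 5.21, 4.20 and 4.68 FPKM in IL-15C and 5.01, 3.75 and 4.19 FPKM in IL-2C. The groups overlapped, and at 342 to 406 fragments per library this was the least precise of the tested members. For Anxa4 the log2 change was 0.10 ± 0.09 (SE; 95% interval -0.11 to 0.31, limma adjusted p = 0.513).

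Anxa3 encodes annexin A3, known as an abundant protein of neutrophils. It lies on chromosome 5 at 96793385 to 96845968, on the plus strand. Its level was 0.0575, 0.0535 and 0.0662 FPKM in IL-15C and 0.0581, 0.0604 and 0.0119 FPKM in IL-2C, from 4, 4 and 5 fragments against 4, 5 and 1. It was below the limit for testing, the groups overlapped, and the two-sided p of the exact permutation test was 0.6. A difference was not detectable at this depth.

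**Figure D3:**
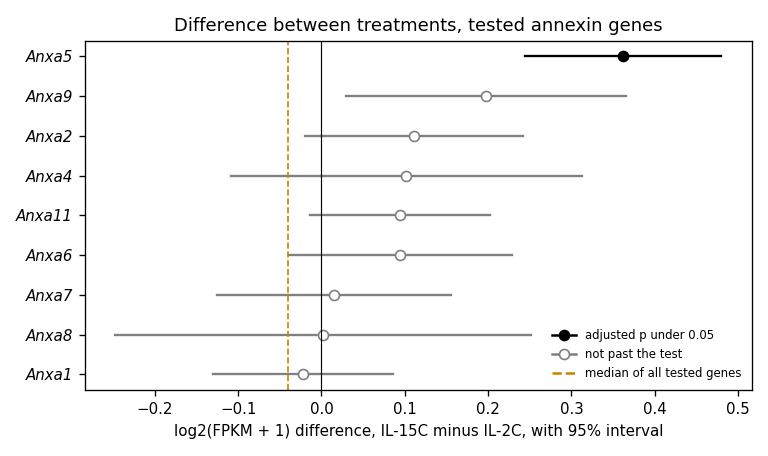
Difference in log2(FPKM + 1) between IL-15C and IL-2C for the 9 annexin genes that could be tested, Anxa8 and Anxa9 included, with the 95% interval of the fit, not adjusted for the number of genes. Filled symbols passed the limma test, which only Anxa5 at 0.36 did; the dashed line is the median of all tested genes, -0.04.

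Replicate 1 was the highest library of its group for 6 of the 8 annexin genes in IL-15C and for 6 of 8 in IL-2C, and IL-15C replicate 1 was the highest of all libraries for 6 of 8. Exceptions in IL-15C were Anxa1 and Anxa3, and in IL-2C the same pair. The share of all genes with this order was not counted. The summed level of the 12 NK cell genes was likewise highest in replicate 1 of each group, at 12576 FPKM in IL-15C and 12774 FPKM in IL-2C. That of the annexin-binding genes was highest in replicate 1 of IL-15C but in replicate 3 of IL-2C. IL-15C replicate 1 also had the highest summed level of 13 neutrophil markers, 118 FPKM, where its group mates had 44.2 and 59.1 and the IL-2C group 43.5 to 64.5, and of 9 erythroid markers, 22.4 FPKM against at most 3.93 in any other library. The part of these cells in the annexin values was not tested. Without IL-15C replicate 1 the log2 change of Anxa5 was 0.31 ± 0.05 (limma adjusted p = 0.00675), that of Anxa2 0.07 and that of Anxa6 0.05.

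The 4 annexin genes outside the list were also measured. Anxa8 had 15.9, 18.0 and 19.4 FPKM in IL-15C and 21.6, 15.8 and 16.2 FPKM in IL-2C, overlapping ranges with a log2 change of 0.002 ± 0.11 (SE, limma adjusted p = 0.994) whose sign turned when single libraries were left out. Anxa9 had 1.56, 1.69 and 1.90 FPKM in IL-15C and 1.28, 1.33 and 1.49 FPKM in IL-2C. All Anxa9 values of IL-15C lay above those of IL-2C, but the gene did not pass limma (log2 change 0.20 ± 0.07, adjusted p = 0.130), except with array weights (adjusted p = 0.0318). GENCODE places Mindy1 on the other strand of the Anxa9 locus and 6330562C20Rik on the same strand, so their reads may be counted in it. Anxa10 and Anxa13 were listed at 0 in all 6 libraries.

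The authors' deposited table gives 1 value per group, and there Anxa5 had 28.9 FPKM (interval 24.3 to 33.5) in IL-15C and 21.5 FPKM (18.0 to 25.0) in IL-2C. In that deposited table the intervals of the 2 groups overlapped for Anxa5 and for all 8 annexin genes, and they were separated for 0.59% of tested genes on the higher side and 0.224% on the lower side. All 8 members had the higher deposited group value in IL-15C, Anxa1 among them at 109.8 against 107.9 FPKM, the opposite sign to its change above. The share of all genes with the higher deposited value in IL-15C was not counted, so this count is a description only. It includes Anxa3, which had at most 5 fragments in any library. The table pools the same libraries and was scaled separately, so its levels are not comparable with those above.

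Proteins that bind annexins were taken as a list of 12 genes, chosen with earlier results of these data known. Of the 9 that were tested with limma, 4 were higher in IL-15C, 0 were lower and 5 did not pass. Over all tested genes, 1.72% were called higher and 4.72% lower. At an unadjusted p under 0.05 the counts were again 4 and 0, where all tested genes gave 6.48% and 20.4%. The median log2 change of the 9 was 0.08, and that of all tested genes was -0.04. The 4 genes that rose all encode S100 proteins. S100a10, the partner of annexin A2, was not among them: it had 631, 617 and 610 FPKM in IL-15C and 635, 547 and 636 FPKM in IL-2C. Its ranges overlapped, with a log2 change of 0.03 ± 0.07 (SE, 95% interval -0.12 to 0.19, limma adjusted p = 0.788).

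S100a6, whose product binds annexins A2 and A11, had 549, 541 and 508 FPKM in IL-15C and 401, 367 and 405 FPKM in IL-2C, with no overlap. Its log2 change was 0.45 ± 0.06 (SE, limma adjusted p = 0.00960), and the call ended without IL-2C replicate 2 (adjusted p = 0.0516). S100a11, the partner of annexin A1, had 419, 384 and 365 FPKM in IL-15C and 334, 306 and 328 FPKM in IL-2C. It also did not overlap, but its call (log2 change 0.27 ± 0.06, limma adjusted p = 0.0419) was lost in each of the 6 omissions of 1 library, at adjusted p of 0.0545 to 0.145. S100a4, whose product binds annexin A2, had 213, 233 and 199 FPKM in IL-15C and 119, 103 and 139 FPKM in IL-2C, and kept its call in all 6 omissions (log2 change 0.83 ± 0.10, limma adjusted p = 0.00608). S100a1, whose product binds annexin A6, had 22.2, 20.8 and 20.4 FPKM in IL-15C and 15.8, 14.2 and 17.4 FPKM in IL-2C (log2 change 0.40 ± 0.07, limma adjusted p = 0.0189), a call that ended when either IL-2C replicate 1 or IL-2C replicate 2 was left out.

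**Figure D4:**
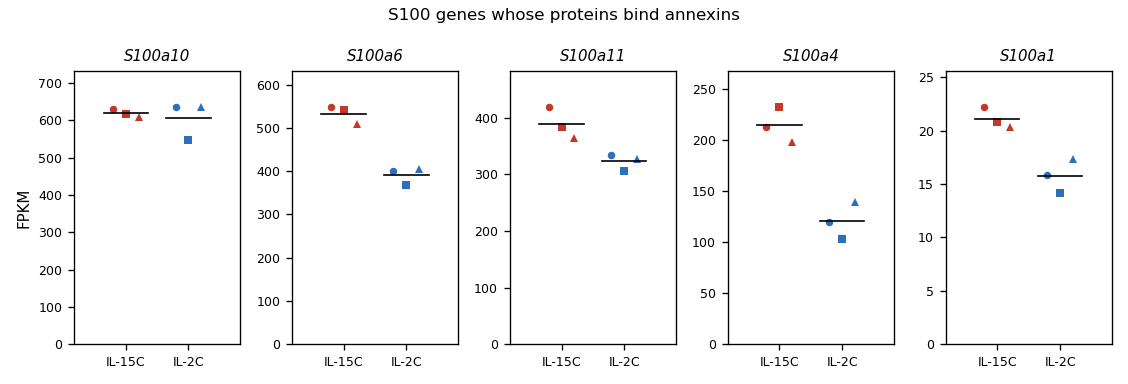
FPKM in each library (axes from 0) for 5 S100 genes whose products bind annexins, with a line at each group mean; red is IL-15C, blue is IL-2C, and circles, squares and triangles are replicates 1, 2 and 3. The groups overlap for S100a10, at 547 to 636 FPKM, and are separated for S100a6, S100a11, S100a4 and S100a1.

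The ratio of a partner to its annexin was taken in each library. There were 1.44, 1.54 and 1.52 S100a10 transcripts per Anxa2 transcript, by FPKM, after IL-15C, and 1.58, 1.48 and 1.68 after IL-2C, which overlap. For S100a11 and Anxa1 the ratio was 5.51, 4.60 and 4.41 after IL-15C, and 4.05, 3.83 and 3.93 after IL-2C. For S100a6 and Anxa11 it was 9.38, 9.33 and 8.92 against 6.95, 6.96 and 7.78. The last 2 ratios did not overlap between the groups, and no test was run on them. S100a11 and S100a6 were themselves separated between the groups, while Anxa1 and Anxa11 were not, so these ratios are no separate result.

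The other tested annexin-binding genes, Pdcd6, Pef1, Sri and Ahnak, did not pass, and Gca, Plg and Plat were below the limit for testing. Pdcd6, the calcium sensor ALG-2 that binds annexins A7 and A11, had 36.7 FPKM ± 0.929 (SD, n = 3) after IL-15C and 39.0 ± 2.40 after IL-2C. Sri, which encodes sorcin, a partner of annexin A7, had 79.3 ± 3.64 and 77.1 ± 2.08. Ahnak, a giant scaffold that binds annexin A2 with S100A10, had 130.2 ± 3.34 and 123 ± 14.2. Their limma adjusted p were 0.302, 0.613 and 0.493. Genes of the formyl peptide receptor family, a list of 6, were near or at 0. Fpr2 had 0.347, 0.296 and 0.242 FPKM in IL-15C and 0.161, 0.200 and 0.154 FPKM in IL-2C. Fpr1 had at most 0.160 FPKM in any library, and the other 4 of the 6 family members were listed at 0. Not every gene of that family is known here to be a receptor of annexin A1.

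Genes that place phosphatidylserine, the lipid annexins bind, were a list of 14, of which 11 were tested. By limma 0 were higher, 2 lower and 9 did not pass (all tested genes, 1.72% higher and 4.72% lower). At an unadjusted p under 0.05, 3 were higher and 6 lower (all tested genes, 6.48% and 20.4%). The median log2 change of the list was -0.13 (all tested genes, -0.04). The flippase gene Atp11b averaged 86.8 FPKM ± 6.11 (SD, n = 3) after IL-15C and 102.2 ± 1.29 after IL-2C. The scramblase family gene Plscr4 had 9.99, 11.4 and 11.3 FPKM after IL-15C and 12.6, 13.1 and 13.2 FPKM after IL-2C. Atp11b had a log2 change of -0.23 and Plscr4 of -0.24 (limma adjusted p = 0.0400 and 0.0396). Both lost that call under all 3 other scalings and kept it in 1 of the 6 omissions.

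Of 17 tested membrane repair genes (25 listed), 0 were higher and 0 lower by limma, against 2 and 3 at an unadjusted p under 0.05, and their median log2 change was -0.05. Of 13 tested copines, synaptotagmins and related calcium-dependent lipid-binding genes (22 listed), 0 were higher and 1 was lower by limma, against 1 and 4 unadjusted, with a median of -0.04. The gene that fell was the copine Cpne7, with a log2 change of -0.66 ± 0.04 (limma adjusted p = 0.000338), which kept its call under all 16 alternatives. Phospholipase A2 is the activity annexins were first named for inhibiting. Of 4 tested phospholipase A2 genes (11 listed), 0 were higher and 0 lower by limma, against 1 and 0 unadjusted. Their median was 0.07. Over all tested genes, 1.72% were higher and 4.72% lower by limma, 6.48% and 20.4% unadjusted, with a median of -0.04.

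A list of genes of the glucocorticoid response was chosen because Anxa1 is induced by glucocorticoid. Of its 9 tested genes, 1 was higher and 1 lower by limma, against 2 and 3 at an unadjusted p under 0.05. Over all tested genes these shares were 1.72% and 4.72% by limma, and 6.48% and 20.4% unadjusted. The median log2 change was -0.04 for the list and for all tested genes. Fkbp5, a chaperone of the glucocorticoid receptor, rose from 19.6 FPKM ± 0.814 (SD, n = 3) in IL-2C to 24.6 ± 2.04 in IL-15C. The kinase gene Sgk1 averaged 47.4 ± 4.40 in IL-2C and 33.9 ± 1.98 in IL-15C. The limma adjusted p were 0.0267 for Fkbp5 and 0.0120 for Sgk1, and the calls held in 2 and 4 of the 6 omissions.

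The 5 genes whose log2 levels followed Anxa5 most closely over the 6 libraries, among genes of at least 5 FPKM, were Glrx, Ywhae, Endod1, Rom1 and Parvg. Their Pearson r with Anxa5 ranged from 0.992 to 0.9995. The points share 6 libraries in 2 groups, and the match was picked as the closest among all genes of that level, so it is a description only. Glrx, which encodes the redox enzyme glutaredoxin, had 45.9, 39.2 and 36.6 FPKM in IL-15C and 27.1, 24.9 and 25.7 FPKM in IL-2C. Ywhae, which encodes a 14-3-3 protein, had 77.8, 73.4 and 71.4 FPKM in IL-15C and 63.4, 61.0 and 61.3 FPKM in IL-2C. As for Anxa5, replicate 1 was the highest library of each group for both, an order that picking them by their match to Anxa5 favours.

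The cell label was checked against markers. The summed level of 12 NK cell genes was 11830 to 12576 FPKM in IL-15C and 11304 to 12774 in IL-2C. Gzma alone had 5078 to 6048 FPKM of it. The sums were 65.8 to 89.3 and 67.6 to 73.1 for 10 T cell genes and 5.06 to 17.2 and 9.64 to 24.7 for 10 B cell genes. The T cell sum was mostly Cd3g (30.7 to 44.6 FPKM), Cd3d (15.3 to 22.3) and Cd28 (13.7 to 15.9). Cd4, Cd8a and Cd8b1 had at most 0.0767 FPKM in any library. MHC class II genes summed to 17.4 to 46.7 and 23.0 to 66.6, monocyte and macrophage genes to 22.6 to 31.7 and 17.9 to 26.1, platelet genes to 10.1 to 11.7 and 11.1 to 12.5, and stromal and endothelial genes to 25.1 to 27.7 and 20.9 to 21.3. The last sum was nearly all Pecam1, at 25.0 to 27.6 and 20.8 to 21.2 FPKM, and each other gene of that list had at most 0.127 FPKM. The dendritic cell list, at 260 to 281 and 216 to 230, was mostly Itgax at 197 to 260.2 FPKM, an integrin gene that NK cells also express. Single genes of these lists passed limma. Retnlg (1 of 7 neutrophil genes tested), Itgax (1 of 3 dendritic cell genes) and Pecam1 (1 of 1) were higher in IL-15C. Klre1 (1 of 12 NK cell genes) and Gp1bb (1 of 3 platelet genes) were lower. Each lost its call in at least 2 of the 6 omissions. Over all tested genes, 1.72% were called higher and 4.72% lower. At an unadjusted p under 0.05, 1 NK cell gene was higher and 4 lower (all tested genes, 6.48% and 20.4%). Retnlg, a neutrophil gene, had 0.923 to 2.61 FPKM over the 6 libraries.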

How the data were processed

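RNA sequencing libraries of sorted splenic NK cells, 3 IL-15C and 3 IL-2C, were grouped by their titles. Per the submitters' processing notes, the tools were TopHat2 2.0.13 and Cufflinks 2.2.1 and the build mm10, and no gene annotation is named in the sources used here. Deposited by the authors were FPKM values with interval bounds, 1 table per library, and a Cuffdiff table of group FPKM values. No count model was fitted to FPKM. Several rows of 1 gene were added up, and 10 genes with a failed estimate were dropped, leaving 24333. Taking each interval as 2 SD of a Poisson count on either side gave 23543141 to 27229145 implied fragments per library; such error covers counting only, and an interval widened for shared or isoform reads implies fewer fragments.

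The test was limma 3.58.1 (R 4.3.3) with an intensity trend on log2(FPKM + 1), two-sided, over the 9831 genes with a mean of at least 1 FPKM, with Benjamini-Hochberg adjustment and a threshold of 0.05. It was also run on simulated data with independent normal noise and limma's own fitted spread. That simulation cannot show how stable the calls here are. A change on this scale understates that of low genes. The genes named are all members, the other annexins, 8 annexin-related genes, up to 4 called genes per list and the 5 genes most like the called member by Pearson r. Members and lists were chosen with earlier results of these data known. Starts are the authors' plus 1, which matched RefSeq for 5 of 8 members, against 1 without it. Other software was Python 3.11.15, pandas 2.3.3, scipy 1.17.1, numpy 2.4.6 and, for plots, matplotlib 3.10.9. Alternatives were pseudocounts, filters, scalings, limma settings, a replicate block and omission of each library.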

Additional observations from a re-analysis of the deposited data

How the results depend on the processing

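With 3 libraries a group, several calls were lost when 1 library was left out. The number of annexin genes higher in IL-15C was 1, and 0 with no filter on low genes, which adds 14502 genes to the test; over the omissions of 1 library it ranged from 0 to 1. The number of lower annexin genes was 0 under all 16 alternatives. Over all genes, 169 were higher and 464 lower; the counts were 12 and 17 with no filter, 325 and 207 after scaling to a common median, 307 and 269 after quantile normalization, and 440 and 1667 with array weights, and ranged from 14 to 176 and from 15 to 575 over the omissions. The lowest counts, 14 and 15, came without IL-2C replicate 2, and 27 and 19 came without IL-2C replicate 1. The log2 change of Anxa1 was 0.0229 after scaling to a common median and 0.0242 with array weights, and -0.0462 to 0.0205 over the omissions. That of Anxa7 was -0.000743 with array weights and -0.0354 to 0.0657 over the omissions. Anxa8 ranged from -0.0762 to 0.139 and S100a10 from -0.0385 to 0.0703 over the omissions. Of the 19 called genes named besides Anxa5, 4 kept their call in every omission and 18 lost it with no filter. The cause was not tested.

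The labels do not say whether same-numbered libraries of the groups belong together. Deviations of same-numbered libraries from their group means correlated at -0.03, -0.16 and -0.02 across genes. Differently numbered libraries gave -0.14 to 0.18, and these values do not settle whether the libraries were paired. With a replicate block, 171 genes were higher and 346 lower, and Anxa5 had a limma adjusted p of 0.0157.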
